A study of Gallus gallus with 14 samples.

Results

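Thyroid hormone reaches its target genes through a short chain of proteins, and 6 genes of that chain were followed here in the retina of young chickens. They are the deiodinase genes DIO2 and DIO3, the carrier gene TTR, the transporter genes SLCO1C1 and SLC16A10 and the receptor gene THRA, picked by gene symbol from the 18631 genes of the deposited table, which holds all 6. The birds were wild-type White Leghorn chickens, a layer breed, and total RNA of the retina was sequenced after ribosomal RNA depletion. In 7 libraries (lens) the retina came from an eye that carried a -10 dioptre lens for 1 day from the age of 3 days. For the other 7 (control) an age of 3 days is also recorded, and the labels do not say how the eye was handled. Such a lens places the image behind the retina, and the growing chick eye answers by elongating. By the numbers in their titles the lens libraries fall into a set of 4 (numbers 1 to 4, here lens set A) and a set of 3 (numbers 12 to 14, here lens set B), which are kept apart below; controls carry the numbers 10, 17, 18, 19, 21, 22 and 23. Nothing in the labels says that the libraries came from separate birds, so a p-value here reflects only how far these samples scatter, which may be technical.

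The gland secretes mostly thyroxine, a prohormone that binds its nuclear receptors weakly. DIO2, an enzyme of the endoplasmic reticulum membrane, removes an iodine from the outer ring and so makes triiodothyronine, the active form; DIO3 removes one from the inner ring and inactivates both hormones. Because the receptors bind DNA with or without hormone, local deiodination sets how target genes behave in a tissue, and in the developing mouse retina this pathway is known for its part in the choice of cone opsin.

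The members were listed by function with earlier results of these data known, and DIO2 had been singled out after its values in the lens sets were seen. The comparisons of lens sets and controls are therefore given for the 6 members as a description, with a standard error and no test. The titles also end in a letter, L or R, which played no part in that choice, and here the members were tested. Values are CPM (reads per 1000000 of the library's read total), not divided by gene length, so levels are compared between libraries and not between genes. Of the 6 members, 3 (DIO2, SLCO1C1 and THRA) averaged at least 1 CPM and entered the fit over 11005 genes.

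Some features of the libraries touch several results. Libraries of lens set A rest on 34.1 to 43.6 M reads (M, 1000000), those of lens set B on 40.3 to 49.2 M and controls on 27.7 to 40.3 M. These totals are inferred from the smallest step between values, and the sources used here do not state the scaling total. The columns summed to only 298680 to 319250 CPM, so reads on the listed genes came to 8.65 to 15.3 M a library. Reads of genes on the W chromosome, which hens have and cocks lack, summed to 604 to 655 CPM in 7 libraries and to 1.54 to 3.11 CPM in the other 7. The first kind made up 3 of lens set A (all but library 4), 1 of lens set B (library 13) and 3 controls (19, 21 and 23). Markers of retinal neurons and glia were present throughout: the photoreceptor list summed to 1580 to 1900 CPM in lens set A, 1437 to 1665 CPM in lens set B and 1537 to 1851 CPM in controls. Of 5 marker genes of the eye's own lens, 4 are in the table. The crystallin genes CRYAA, CRYBB1 and ASL1 were each under 0.1 CPM on average, and BFSP1 averaged 3.15 CPM.

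DIO2 was lower in lens set A than in all other libraries. It had 61.3, 57.0, 57.0 and 54.0 CPM in lens set A, and 78.0, 79.4 and 84.5 CPM in lens set B. In controls 10, 17, 18, 19, 21, 22 and 23 it had 76.1, 88.7, 71.2, 71.1, 89.7, 75.8 and 91.4 CPM. All 4 libraries of lens set A lay below every control, as for 2.73% of the genes in the fit, and below every library of lens set B, as for 7.57%. Lens set B lay inside the control range. In bulk retina, fewer cells that express a gene and less of its RNA per cell cannot be told apart.

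**Figure D1:**
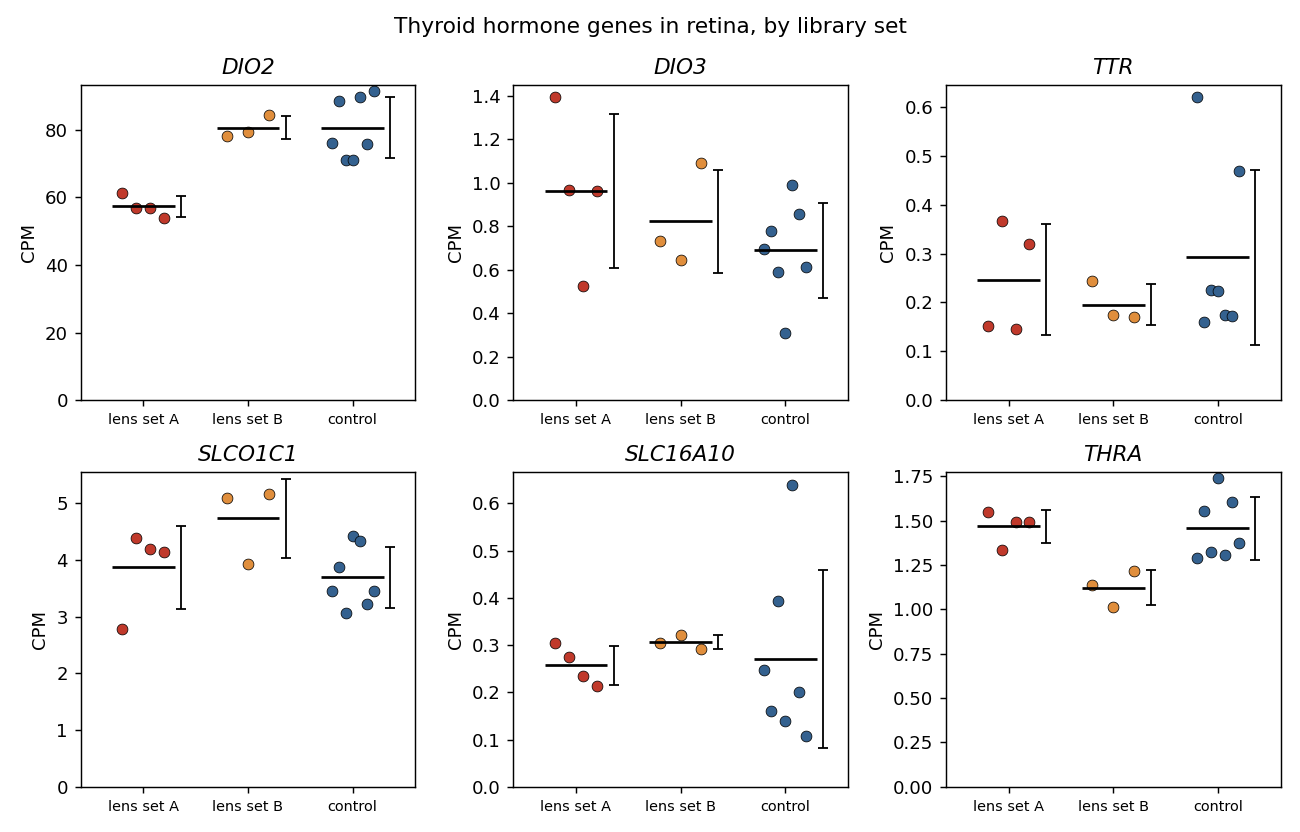
CPM (vertical axes, each starting at 0) of the 6 members in lens set A, lens set B and controls; points are libraries, lines are means and bars beside them are the SD. DIO2 in lens set A (54.0 to 61.3 CPM) lies below all other libraries, and THRA in lens set B (1.01 to 1.21 CPM) lies below all other libraries.

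Lens set A averaged 57.3 ± 2.98 CPM of DIO2 (SD, n = 4) against 80.6 ± 9.01 CPM in controls (SD, n = 7), a ratio of 0.711 and a log2 fold change of -0.48 (SE 0.085). DIO2 was chosen with this contrast known, so nothing is read from its being among the 300 genes that lay wholly below the controls. Lens set B averaged 80.6 ± 3.42 CPM (SD, n = 3), a log2 fold change of 0.0080 (SE 0.097) against the same controls. Over all 7 lens libraries the mean was 67.3 ± 12.8 CPM and the log2 fold change -0.27 (SE 0.12), a value that averages unlike sets. Set against each other, lens set A and lens set B differed by -0.49 on the log2 scale (SE 0.052).

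The spread of DIO2 within sets was small in the lens libraries and wider in controls. The 7 controls did not spread evenly: 3 of them (17, 21 and 23) had 88.7 to 91.4 CPM and the other 4 had 71.1 to 76.1 CPM. Between 1940 and 3837 reads stood behind each DIO2 value, so counting error is small beside this spread.

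Among libraries with W-linked reads, DIO2 had 57.0 to 61.3 CPM in lens set A (n = 3), 79.4 CPM in the single library of lens set B and 71.1 to 91.4 CPM in controls (n = 3). Among those without, it had 54.0 CPM in the single library of lens set A, 78.0 and 84.5 CPM in lens set B and 71.2 to 88.7 CPM in controls (n = 4). Lens set A was the lowest in both kinds of library. This had to be so, since all its libraries lay below all others and DIO2 was chosen with that known. Nothing is read from this order. Taking the W-linked level into the fit gave lens set A a log2 fold change of -0.51 against control.

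**Figure D2:**
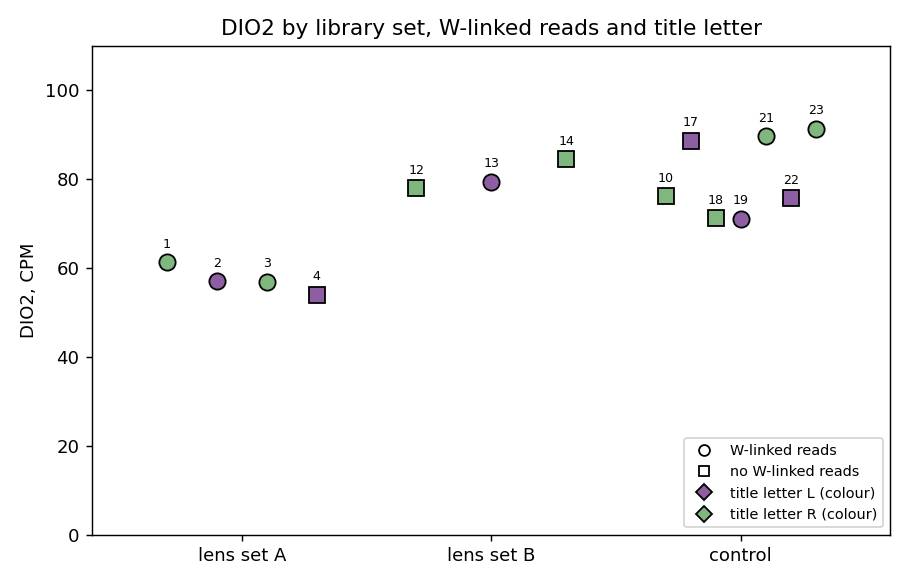
DIO2 in CPM (vertical axis, from 0) for each library, with its title number above the point; circles have W-linked reads and squares do not, and colour gives the title letter. The libraries of lens set A, of which 1 lacks W-linked reads, sit between 54.0 and 61.3 CPM, against 71.1 to 91.4 CPM in controls.

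No control carries a number from 1 to 9, so an effect of the lens cannot be told apart from whatever else the 4 libraries of lens set A share. Markers of Mueller glia, the supporting cells that span the retina, summed to 1232 to 1550 CPM in lens set A, 1202 to 1612 CPM in lens set B and 1133 to 1594 CPM in controls, with all 5 of the list above 1 CPM. Within that list CA2 averaged 285 CPM in lens set A, 434 CPM in lens set B and 343 CPM in controls. The rest of the list averaged higher in lens set A than in controls. GLUL had 591 against 530 CPM, RLBP1 31.6 against 29.2, SLC1A3 306 against 292 and VIM 140 against 123. Endothelial and vessel markers, of which 4 of 8 averaged at least 1 CPM, summed to 55.6 to 67.2, 56.5 to 59.4 and 51.7 to 73.1 CPM in the same order, and CLDN5, CDH5 and TIE1 were under 0.1 CPM. Bipolar cell markers, all 3 above 1 CPM, summed to 252 to 280.1 CPM in lens set A, wholly above the 225 to 242 CPM of lens set B and overlapping the 229.7 to 254 CPM of controls at the edge. VSX1, 1 of these markers, averaged 82.2 CPM in lens set A, 55.3 CPM in lens set B and 58.1 CPM in controls. The part of these cell types in the DIO2 values was not tested.

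DIO3, the inactivating deiodinase, was read at a low level. It had 1.40, 0.965, 0.527 and 0.961 CPM in lens set A and 0.731, 0.644 and 1.09 CPM in lens set B, while the 7 controls ran from 0.309 CPM through a median of 0.695 CPM to 0.988 CPM. These values rest on 11 to 55 reads a library, and the groups overlap. The log2 fold change was 0.21 (SE 0.14) for lens set A and 0.11 (SE 0.13) for lens set B against control.

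Summed over libraries, DIO3 stood at 0.977 CPM in lens set A (95% exact Poisson interval 0.828 to 1.15), 0.819 CPM in lens set B (0.671 to 0.989) and 0.692 CPM in controls (0.592 to 0.804), so the interval of lens set A lay above that of controls while their single libraries overlap. These intervals cover counting error only, not the spread between libraries, and reads without molecular identifiers are not independent molecules. The read numbers behind them were inferred from the values and rounded to whole reads. Per read of DIO3 there were 43.9, 59.1, 108 and 56.2 reads of DIO2 in lens set A, 107, 123 and 77.4 in lens set B and 88.4 to 230 in controls. In 3 of lens set A this ratio lay below all 10 other libraries outside that set. DIO2 had been chosen with its low values in lens set A known, so nothing is read from this order. An uncharacterised gene, LOC112532524, overlaps DIO3 on the opposite strand, and since the use of strand in counting is not given, reads of the pair may be shared. DIO2 overlaps no other listed gene.

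TTR codes for transthyretin, which carries thyroid hormone in blood and cerebrospinal fluid and is made in the choroid plexus and in the pigment epithelium behind the retina. It had 0.152, 0.368, 0.147 and 0.320 CPM in lens set A, and 0.244, 0.173 and 0.170 CPM in lens set B. Controls ran from 0.161 CPM through a median of 0.224 CPM to 0.620 CPM, the highest being control 10. Only 5 to 25 reads stood behind each value, and the 3 sets overlap throughout.

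The log2 fold change of TTR was -0.045 (SE 0.11) in lens set A and -0.10 (SE 0.11) in lens set B against control. Pigment epithelium can stay attached to a dissected retina. Its 10 markers summed to 31.2 to 44.3 CPM in lens set A, 31.5 to 35.4 CPM in lens set B and 34.0 to 40.3 CPM in controls, but most of this came from MITF and OCA2. BEST1 and TYR were under 0.1 CPM on average, PMEL averaged 0.219 CPM and RPE65 2.46 CPM. The part of pigment epithelium in the TTR values was not tested.

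SLCO1C1 codes for an organic anion transporter that takes up thyroxine and, in mammals, serves at the blood-brain barrier. It had 2.79, 4.39, 4.19 and 4.14 CPM in lens set A and 5.10, 3.94 and 5.17 CPM in lens set B, with controls from 3.07 CPM through a median of 3.46 CPM to 4.43 CPM. Lens libraries 12 and 14 were the 2 highest of all 14, and lens library 1 was the lowest. Both of those highest libraries lacked W-linked reads, whereas controls without such reads had 3.07 to 3.89 CPM and those with them 3.46 to 4.43 CPM.

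Lens set B averaged 4.73 ± 0.693 CPM of SLCO1C1 (n = 3) against 3.69 ± 0.533 CPM in controls (n = 7), a log2 fold change of 0.29 (SE 0.12). Lens set A averaged 3.88 ± 0.731 CPM (n = 4), a log2 fold change of 0.050 (SE 0.12), which is 0.17 without lens library 1. Over summed reads the level was 3.88 CPM in lens set A (interval 3.57 to 4.20), 4.77 CPM in lens set B (4.40 to 5.16) and 3.70 CPM in controls (3.46 to 3.95).

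SLC16A10 codes for a transporter of aromatic amino acids that also moves triiodothyronine across the cell membrane. It was the sparsest transporter among the members, with 3 to 22 reads a library. Lens set A had 0.305, 0.276, 0.234 and 0.214 CPM, lens set B had 0.305, 0.322 and 0.292 CPM, and controls ran from 0.108 CPM through a median of 0.200 CPM to 0.639 CPM. All 7 lens libraries lay inside the control range. The log2 fold change over all lens libraries was 0.021 (SE 0.077), and 0.16 with a pseudocount of 0.1 in place of 1. LOC112532085 overlaps SLC16A10 on the opposite strand.

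THRA codes for a nuclear receptor through which triiodothyronine acts on its target genes. It had 1.55, 1.33, 1.49 and 1.49 CPM in lens set A and 1.14, 1.01 and 1.21 CPM in lens set B. Controls ran from 1.29 CPM through a median of 1.37 CPM to 1.74 CPM. The order of the sets differed from that of DIO2, with lens set B below every control and every library of lens set A, and lens set A inside the control range.

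**Figure D3:**
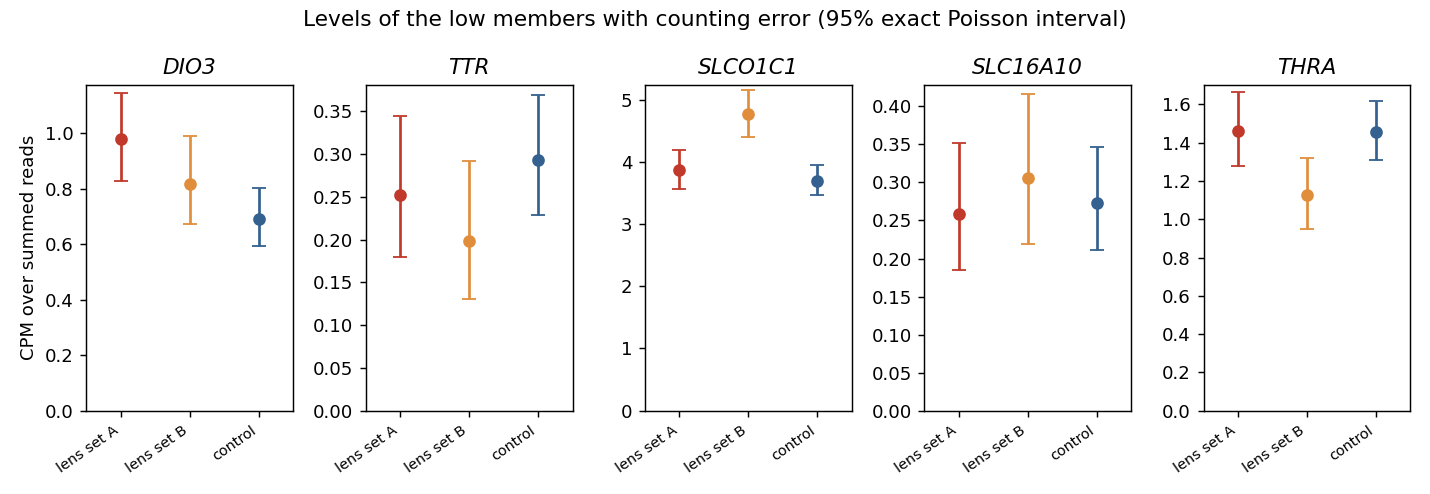
Level of the 5 members other than DIO2, in CPM over the summed reads of each set (vertical axes from 0), with 95% exact Poisson intervals that cover counting error only. The THRA interval of lens set B (0.950 to 1.32 CPM) overlaps that of controls (1.31 to 1.62 CPM) at its edge.

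Lens set B averaged 1.12 ± 0.101 CPM of THRA (n = 3) against 1.46 ± 0.176 CPM in controls (n = 7), a ratio of 0.771. The log2 fold change was -0.21 (SE 0.065) on the log2(CPM + 1) scale, which understates changes of low genes, and -0.34 with a pseudocount of 0.1. Of the genes in the fit, 0.927% had all 3 of these libraries below every control, and as for DIO2 nothing is read from THRA being among them. All 4 libraries of lens set A lay above all 3 of lens set B, as for 15.5% of the genes. Only 41 to 56 reads stood behind each value of lens set B. Over summed reads THRA stood at 1.46 CPM in lens set A (interval 1.28 to 1.67), 1.12 CPM in lens set B (0.950 to 1.32) and 1.46 CPM in controls (1.31 to 1.62). The log2 fold change of lens set A against control was 0.0096 (SE 0.056).

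The positions of the members are those of the deposited table, on the GRCg6a build. DIO2 lies on chromosome 5 from 40752222 to 40769123 on the minus strand, and DIO3 on the same chromosome from 49490516 to 49492000 on the plus strand. THRA lies on chromosome 27 from 7152162 to 7163449, SLCO1C1 on chromosome 1 from 65137008 to 65158247 and TTR on chromosome 2 from 106129430 to 106138304, all on the plus strand. SLC16A10 lies on chromosome 3 from 66218823 to 66280610 on the minus strand.

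The title letter, which was not used in choosing the genes, gave no call among the members. Libraries ending in L had 54.0 to 88.7 CPM of DIO2 (n = 6) and those ending in R had 57.0 to 91.4 CPM (n = 8). With the lens set as a covariate, limma gave DIO2 a log2 difference of -0.064 (L minus R, SE 0.069, adjusted p = 1.000). For THRA it was 0.050 and for SLCO1C1 0.053, both with an adjusted p of 1.000. Without a filter on low values, DIO3, SLC16A10 and TTR stood at -0.068, -0.10 and -0.042 with adjusted p of 1.000 each. In this comparison limma called 0 of 11005 genes (0%), with 254 at an unadjusted p under 0.05.

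Correlations among the 3 members in the fit were weak. Across the 14 libraries, after the mean of each set was taken off, Pearson's r on the log2 scale was -0.16 between DIO2 and THRA, 0.023 between DIO2 and SLCO1C1 and 0.19 between THRA and SLCO1C1. These are descriptions, and the values share their libraries and scaling.

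Genes whose level followed DIO2 most closely across all 14 libraries were ranked among 10000 named genes in the fit. DIO2 was chosen with its low values in lens set A known, so this ranking favours genes that part lens set A from the rest. Nothing is read from the set means of the genes it picked. The highest r were those of TSR1, a ribosome maturation factor (0.91), GATB, a subunit of a mitochondrial amidotransferase that charges glutamine tRNA (0.91), HSP90B1, a chaperone of the endoplasmic reticulum (0.88), FAM98A (0.87) and the mitochondrial ribosomal protein gene MRPS9 (0.87). HSP90B1 averaged 71.2 CPM in lens set A, 114 CPM in lens set B and 109.7 CPM in controls. GATB averaged 9.55 CPM in lens set A, 13.3 CPM in lens set B and 12.8 CPM in controls.

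The lowest r were those of the serotonin transporter gene SLC6A4 (-0.92), the ephrin receptor gene EPHA8 (-0.92), ENPP4 (-0.91), the catalase gene CAT (-0.90) and LSM7 (-0.89). EPHA8 averaged 3.77 CPM in lens set A, 1.46 CPM in lens set B and 1.52 CPM in controls, and SLC6A4 averaged 6.90, 4.60 and 4.07 CPM in the same order.

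**Figure D4:**
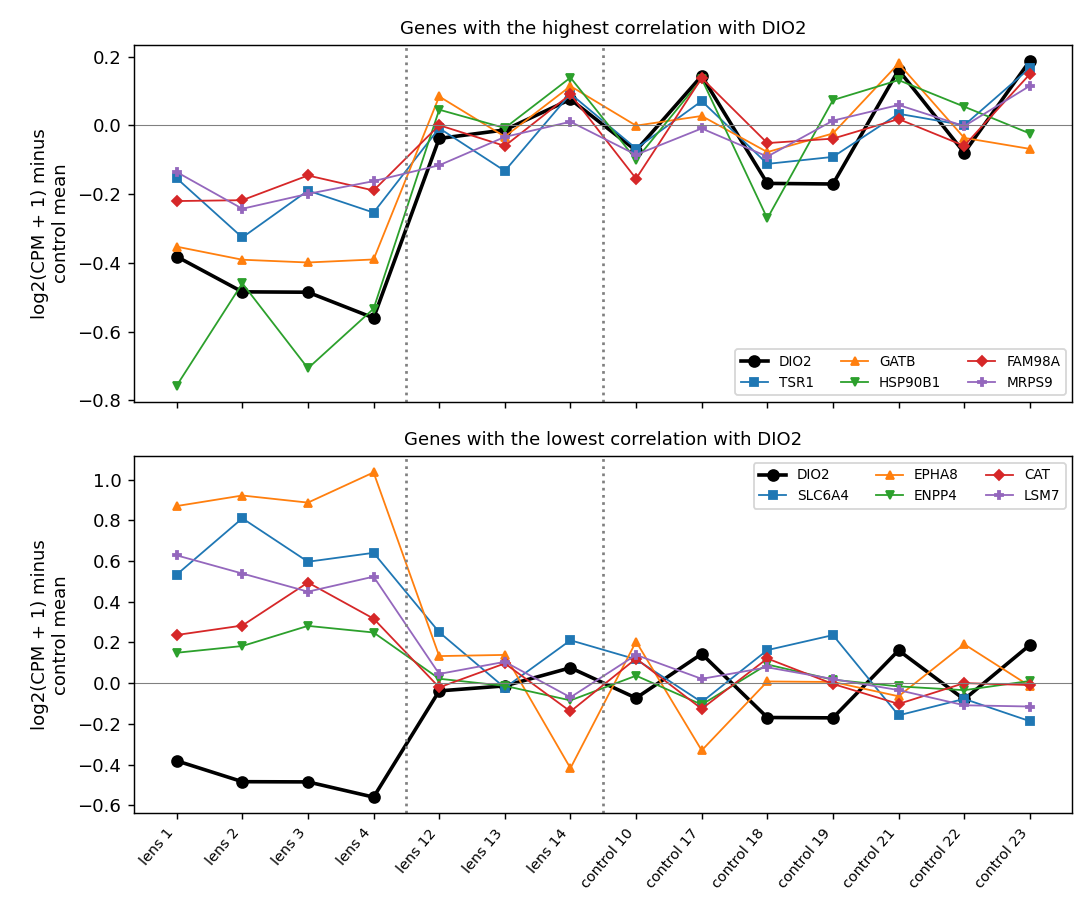
Level of DIO2 (black) and of the 5 genes with the highest (upper panel) and lowest (lower panel) correlation with it over 14 libraries, as log2(CPM + 1) minus the control mean; dotted lines part lens set A, lens set B and controls. DIO2 lies lowest in lens set A, where EPHA8 and SLC6A4, picked for their low correlation with it, stand high.

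With set means taken off, the genes nearest to DIO2 were others: 0 of the 10 in the first ranking were among the 10 in the second. They were VPS41 (0.89) and SNF8 (0.89), both of endosomal trafficking, ACOT13 (0.85), ITGAD (0.83) and HS2ST1 (0.83). At the other end stood TSG101, also of endosomal sorting (-0.90), VHL (-0.81), MRPL34 (-0.77), DPM2 (-0.77) and TPCN3 (-0.75). The nearest to THRA were TPPNR1L (0.92), LOXL1 (0.90) and TIAM1 (0.85), and to SLCO1C1 SEMA5A (0.93), MCRIP1 (0.89) and SLC27A1 (0.87). These are the extremes of 10000 values, and no test was made of them. For DIO2 the spread left after taking off set means lay mostly in the controls. Its SD was 9.01 CPM there, against 2.98 CPM in lens set A and 3.42 CPM in lens set B.

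Around the 6 members, 56 further symbols of the pathway were listed by role, of which 45 are in the table and 30 averaged at least 1 CPM. These lists, like the members, were chosen with earlier results of these data known. Calls of list genes therefore only describe the fit over all genes, and nothing is read from the share of a list that passed. In lens set A against control, 5 of the 30 rose and 1 fell (limma, adjusted p under 0.05). That is 20%, beside 13.4% of all genes tested, where 1034 (9.40%) rose and 446 (4.05%) fell. The split of calls moved with the scaling: with trimmed mean of M values factors 751 of 1497 called genes rose, and 3 of 4 in the list. The median log2 fold change of the 30 was 0.071, and that of all genes 0.039. In the other comparisons with control none of the 30 passed. In lens set B limma called 0 of them (and 0% of all genes). There 1 had an unadjusted p under 0.05, as had 571 of all 11005 genes. Over all 7 lens libraries limma called 0 (0%). There 7 had an unadjusted p under 0.05, as had 1619 of all 11005 genes. Between the lens sets 1 of the 30 passed, RXRA, which was higher in lens set A; that is 3.33% beside 5.01% of all genes (3.53% higher and 1.47% lower). Leaving out lens library 1, 2 or 3 gave 2, 3 and 3 calls in the list against control, and between the sets the list count was 0 without lens library 1, 3, 12, 13 or 14, and 3 without library 4. All comparisons with control use the same 7 control libraries.

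The partners of THRA came first in this list. RXRA, whose product pairs with thyroid hormone receptors on DNA, had 4.52, 4.18, 4.20 and 7.02 CPM in lens set A, 2.83, 2.23 and 1.95 CPM in lens set B and 1.65 to 4.03 CPM in controls. It rose in lens set A (log2 fold change 0.57, SE 0.19, limma adjusted p = 0.0372) and was higher there than in lens set B (0.82, SE 0.20, adjusted p = 0.0290). Against control the call was lost without any 1 of the 4 lens libraries or of controls 17, 18, 19 and 21 (adjusted p 0.0507 to 0.101), and without a filter on low values (0.0717). Between the sets it was lost without lens library 1, 3, 12, 13 or 14 (adjusted p 0.0514 to 0.122), without a filter (0.0731) and with the title letter in the fit (0.0540). THRB, the other thyroid hormone receptor gene, had 155 to 176 CPM in lens set A, 148 to 169 CPM in lens set B and 155 to 176 CPM in controls, with log2 fold changes of 0.045 and -0.022. RXRG averaged 5.33 ± 0.129 CPM in lens set A, 5.15 ± 0.286 CPM in lens set B and 4.96 ± 0.627 CPM in controls and did not pass either.

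Of 9 corepressors and coactivators, through which the receptors silence or activate genes, 2 rose and 1 fell in lens set A. Of all genes tested, 9.40% rose and 4.05% fell in that comparison. MED1, a subunit of the Mediator complex that binds hormone-loaded receptors, had 13.6, 13.2, 14.3 and 15.2 CPM in lens set A, 11.5, 10.7 and 12.1 CPM in lens set B and 9.36 to 12.7 CPM in controls. It rose by a log2 fold change of 0.36 against control (SE 0.078, limma adjusted p = 0.0139). Its 4 libraries of lens set A lay above every control, as did those of RXRA, SLCO4A1 and KLF9 and of 7.05% of all genes tested.

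The coactivators NCOA2 and NCOA3 passed in opposite directions, and in both lens library 4 stood with the controls. That library alone in lens set A lacked W-linked reads. NCOA2 had 56.8, 57.6, 54.7 and 78.2 CPM in lens set A, 73.6, 65.0 and 72.1 CPM in lens set B and 71.9 to 84.7 CPM in controls. Its log2 fold change was -0.16 in lens set B (SE 0.065, limma adjusted p = 0.942). In lens set A it fell with a log2 fold change of -0.36 (SE 0.098, limma adjusted p = 0.0168). The call was lost without lens library 1, 2 or 3 (adjusted p 0.0526 to 0.0648). NCOA3 had 77.1, 73.2, 74.6 and 58.0 CPM in lens set A, 60.8, 60.8 and 61.4 CPM in lens set B and 57.3 to 65.3 CPM in controls. Its log2 fold change was 0.033 in lens set B (SE 0.039). In lens set A it rose by 0.23 (SE 0.075, limma adjusted p = 0.0418). This call was lost without lens library 1, 2 or 3 (adjusted p 0.110 to 0.130) and without control 18, 19, 21, 22 or 23 (0.0611 to 0.0686). Without a filter on low values its adjusted p was 0.0633, and with trimmed mean of M values factors it was 0.109 (log2 fold change 0.19). With the W-linked level in the fit the log2 fold change was 0.22 (adjusted p = 0.0606). The corepressor NCOR1 (log2 fold change -0.016) did not pass.

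**Figure D5:**
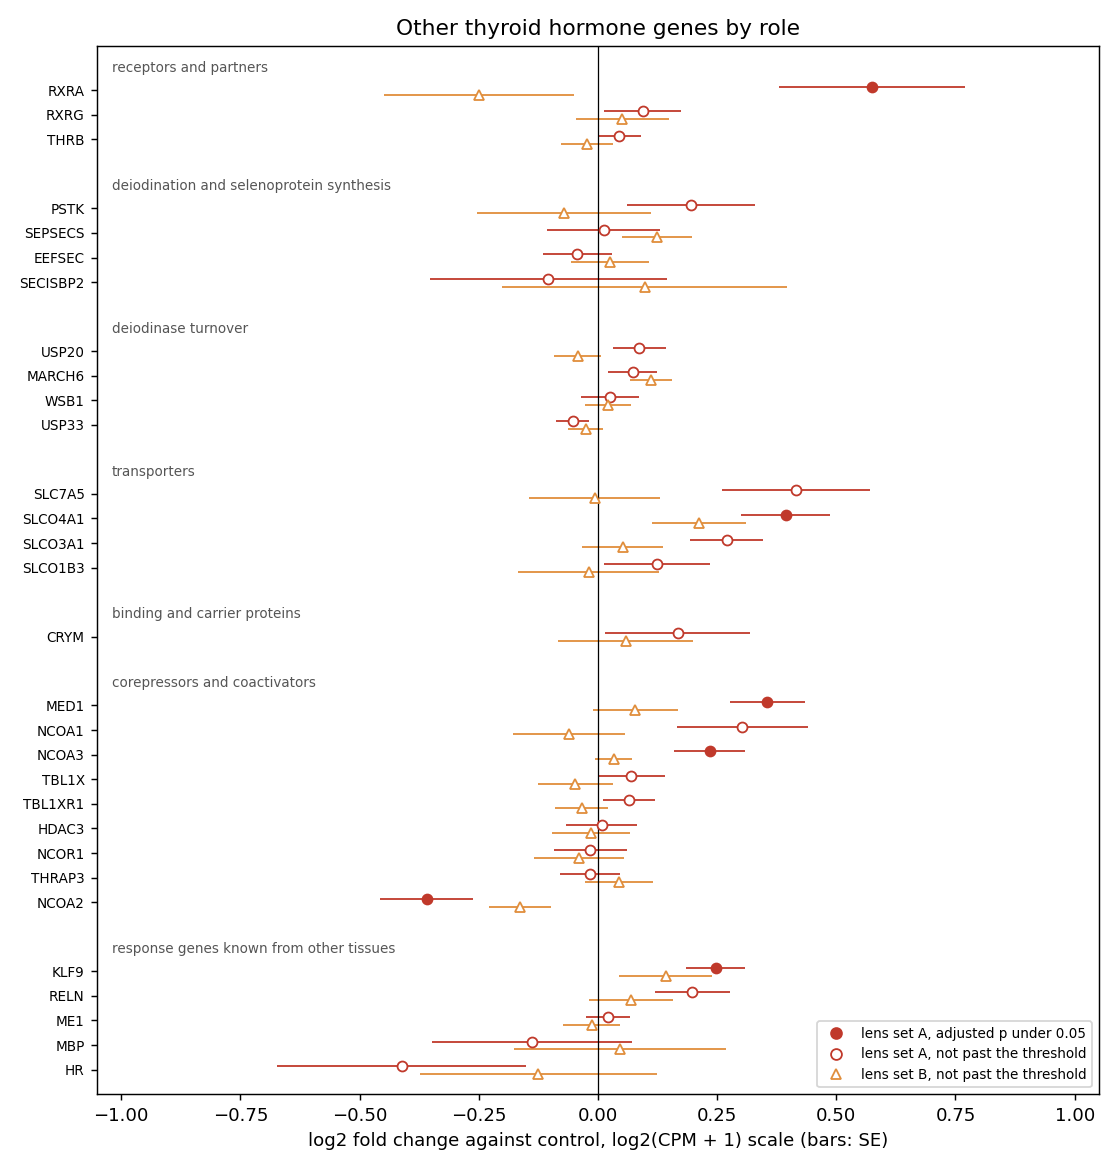
Log2 fold change against control (horizontal axis, log2(CPM + 1) scale; bars are SE) of 30 further genes of the pathway by role, in lens set A (circles, filled where limma's adjusted p was under 0.05) and lens set B (triangles); both use the same 7 controls. The filled circles are RXRA, SLCO4A1, MED1, NCOA3 and KLF9 on the right and NCOA2 on the left.

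Of 4 further transporters in the fit, 1 rose in lens set A, beside 9.40% of all genes tested. SLCO4A1, an organic anion transporter that also accepts thyroid hormone, had 9.67, 11.8, 9.90 and 9.36 CPM in lens set A, 9.12, 8.07 and 9.33 CPM in lens set B and 6.32 to 8.72 CPM in controls. Its log2 fold change was 0.39 in lens set A (SE 0.093, limma adjusted p = 0.0165, and 0.0587 without lens library 2) and 0.21 in lens set B (SE 0.099, adjusted p = 0.942). The large amino acid transporter gene SLC7A5 stood at a log2 fold change of 0.42 in lens set A (adjusted p = 0.0566). SLCO2B1, SLCO1A2 and SLCO4C1 averaged 0.0223, 0.114 and 0.258 CPM.

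Of 5 genes known to respond to thyroid hormone in other tissues, 1 rose in lens set A and none fell. Of all genes tested, 9.40% rose and 4.05% fell there. KLF9, a transcription factor gene induced by triiodothyronine in brain, had 97.2, 92.7, 93.6 and 97.0 CPM in lens set A, 81.5, 81.8 and 103 CPM in lens set B and 69.1 to 85.5 CPM in controls. It rose in lens set A (log2 fold change 0.25, SE 0.062, limma adjusted p = 0.0193), and the adjusted p was 0.0547 without lens library 1 and 0.0836 with trimmed mean of M values scaling. HR, which codes for the corepressor hairless, averaged 8.29 ± 3.08 CPM in lens set A against 11.3 ± 3.17 CPM in controls, a log2 fold change of -0.41 that did not pass (adjusted p = 0.212). ME1 (0.021), MBP (-0.14) and RELN (0.20) did not pass, and THRSP averaged 0.0135 CPM.

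None of the 4 genes for selenoprotein synthesis and none of the 4 for deiodinase turnover passed in any comparison. In lens set A against control, 13.4% of all genes tested passed. DIO2 is a selenoprotein that is removed by ubiquitination, for which WSB1 and MARCH6 code ligase components and USP20 and USP33 the opposing proteases. In lens set A the turnover genes ranged from -0.053 to 0.087 on the log2 scale, with WSB1 at 0.025 and MARCH6 at 0.073 (adjusted p = 0.410). The selenoprotein genes ranged from -0.10 to 0.20, and PSTK, a kinase in selenocysteine synthesis, had the smallest p of them (adjusted p = 0.333). CRYM, which codes for an intracellular triiodothyronine-binding protein, stood at 0.17 (adjusted p = 0.443).

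The remaining deiodinase gene, a thyroid oxidase gene and the hypothalamic and pituitary signals were near 0. DIO1 averaged 0.0355 CPM, TSHB 0.0579 CPM, TRH 0.0143 CPM and the oxidase gene DUOX2 0.0208 CPM.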

How the data were processed

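The table deposited by the authors holds 1 column per library and values read as CPM: less the constant 0.0001 found in every cell, low values were mostly whole multiples of 1 step per library shared by all genes. Within 0.05 steps, 93.8% to 95.1% of values up to 20 steps were whole, too few to run a count model; of 57 member values up to 100 reads, 41 lay within 0.05 and 54 within 0.1 of a whole read. STAR, Partek and the build GRCg6a appear in the submitters' processing notes without a role or version. The counting rule and any use of strand are not given in the sources used here. Chromosomes were named through RefSeq symbols (15419 matched). Columns of other series in the table numbered 0.

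Tests used limma 3.58.1 in R 4.3.3 on log2(CPM + 1), which understates changes of low genes, two-sided, with a trend of variance on level, and p-values were adjusted by Benjamini-Hochberg over the 11005 genes averaging at least 1 CPM (7626 lay under this). Each comparison was fitted on its own libraries. Fold changes of DIO3, SLC16A10 and TTR come from fits without the filter. The members and lists were chosen with earlier results of these data known. Named were all members, up to 4 called genes of each list or the one of smallest p, and the genes most like the members; other list genes were named after their values were seen, as were the marker sums of single libraries. Some listed genes are not reported here and were left out of the list counts. Alternatives covered pseudocount, filter, scaling, variance model, library weights, covariates and each library left out; depth per library limits the low members.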

Additional observations from a re-analysis of the deposited data

Results flagged for a closer look

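In 75 groups of 4 or 7 libraries, 7 had 1 library well apart from the rest, and chance alone gives this in about 5% of groups. Of the members this was SLCO1C1, at 2.79 CPM in lens library 1 against 4.14 to 4.39 CPM in lens libraries 2 to 4. Lens library 4 was the far library in 3 cases: 7.02 CPM of RXRA against 4.18 to 4.52 CPM and 78.2 CPM of NCOA2 against 54.7 to 57.6 CPM in the rest of lens set A, and a pigment epithelium marker sum of 44.3 CPM against 31.2 to 35.7 CPM in the other 6 lens libraries. Library 4 alone in lens set A lacked W-linked reads. Lens library 3 had a ganglion cell marker sum of 165 CPM against 188 to 192 CPM in the rest of its set. Among controls, NCOA3 was at 65.3 CPM in control 17 against 57.3 to 60.4 CPM, and the Mueller glia sum was 1594 CPM in control 22 against 1133 to 1331 CPM in the rest.

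By a test of lens set A against lens set B, 5.01% of all genes passed. The members that entered the fit are counted among all genes, but no test of them is given. Of the 30 further genes of the pathway, listed with earlier results of these data known, 1 passed: RXRA (log2 fold change 0.82, limma adjusted p = 0.0290). The call was lost without lens library 1, 3, 12, 13 or 14 (adjusted p 0.0514 to 0.122), without a filter (0.0731) and with the title letter in the fit (0.0540).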

How the results depend on the processing

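No paired analysis was possible because lens and control libraries share no title number. Under every alternative run the DIO2 log2 fold change stayed within -0.52 to -0.45 for lens set A against control. For lens set B against control it stayed within -0.026 to 0.039. Over all lens libraries it ran from -0.33 to -0.22, and between the sets from -0.53 to -0.45. With a pseudocount of 0.1, THRA was -0.34 in lens set B against control and 0.36 between the sets. With that pseudocount and no filter, an alternative added after seeing the data, DIO3 was 0.42 in lens set A, and SLC16A10 0.27 and TTR -0.31 in lens set B.

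In lens set A against control, 724 to 1636 genes and 2 to 6 of the 30 pathway genes were called with 1 library left out; without lens library 1, 2 or 3 the counts were 869, 911 and 724 genes and 2, 3 and 3 pathway genes. With trimmed mean, median of ratios and quantile scaling 751 of 1497, 748 of 1487 and 773 of 1523 calls were higher, and 3 of 4, 3 of 4 and 4 of 5 pathway calls. Without a filter 1321 genes and 4 pathway genes were called. MED1 kept its call in all 22 alternatives. Over all lens libraries, weights gave 16 genes and leaving out 1 library 0 to 15; in lens set B, weights gave 1 and leaving out 1 library 0 to 2. Between the lens sets the counts were 551 genes and 1 pathway gene, and 261 and 0 without a filter, 1239 and 2 with weights, 1432 and 3 with the W-linked covariate, 278 and 0 with the title letter, and 9 to 807 and 0 to 3 with 1 library left out (95, 268, 103, 170, 165 and 9 genes without lens library 1, 2, 3, 12, 13 and 14). The pathway count was 0 with a 5 CPM filter, which takes out RXRA (mean 3.43 CPM), and 1 with each of the 3 other scalings. The cause of the other shifts was not tested.

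No value that had passed the threshold changed sign. Among untested member values near 0, THRA in lens set A went to -0.033 and SLCO1C1 to -0.0038 with quantile scaling, TTR in lens set A to 0.011 without control 10, SLC16A10 over all lens libraries to -0.010 without control 23 and in lens set A to 0.075 with a pseudocount of 0.1, and DIO3 between the sets to -0.0056 without lens library 1. MARCH6 between the sets was 0.012 with weights and -0.077 to 0.024 with 1 library left out. With 1 library left out, CRYM was -0.037 to 0.23 in lens set B against control and -0.065 to 0.28 between the sets, and PSTK -0.23 to 0.085 in lens set B against control. By title letter SLCO1C1 was -0.018 to 0.14, TTR -0.077 to 0.0085 and DIO3 -0.15 to 0.0025. Depth limits DIO3, SLC16A10 and TTR most, at 3 to 55 reads a library.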
